A study of Mus musculus with 15 samples.

Results

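The 10 genes described here encode NF-kB subunits (Nfkb1, Nfkb2, Rel and Relb) and proteins grouped here as feedback inhibitors of NF-kB (Tnfaip3, Nfkbia, Nfkbie, Nfkbiz, Nfkbid and Bcl3). They were taken by name from the 27019 gene symbols of a raw count table, by a rule that uses no measured value but with earlier results of these data known, and all 10 had counts in every library and passed the filter on low counts. The table holds poly(A) RNA-seq of CD8+ T cells from the spleens of C57BL/6 mice aged 8 to 10 weeks. All mice carried the OT-I transgene, a rearranged T cell receptor that binds the ovalbumin peptide OVA257-264. The 4 groups were Susd2-/- cells without treatment (day 0), WT cells without treatment (day 0), Susd2-/- cells from splenocytes kept with the peptide for 3 days (day 3), and WT cells treated in the same way (day 3). Each group had 2 libraries. The libraries are called 3 and 4 at day 0 and 1 and 2 at day 3, after the labels. Cells of both days were purified with beads that leave the CD8+ T cells untouched. Day 0 cells were not cultured, so the effects of the peptide, of culture and of time cannot be told apart in a comparison of the days. How many mice were used, and whether each library is a mouse of its own, is not stated. All p-values therefore reflect the scatter between libraries of the same group, and that scatter may be technical. In the main fit this scatter was pooled over the 4 groups, so it is not that of the compared groups alone.

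NF-kB is a family of dimeric transcription factors that T cells use to respond to antigen, costimulation and cytokines. In resting cells the dimers are held in the cytoplasm by IkB proteins, and signals from the antigen receptor activate the IKK kinases, which mark IkB for destruction. Freed dimers enter the nucleus and activate, among many genes, those of their own inhibitors: IkBa and the deubiquitinase A20 then shut the signal off. Nfkb1 and Nfkb2 encode the precursors of p50 and p52, Rel encodes c-Rel, the subunit most tied to lymphocyte activation, and Relb encodes the partner of p52 in the non-canonical pathway.

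The promoter sequences of 3 of the genes are shown because each holds κB consensus matches, and because the genes moved in different ways in the data. Capitals mark each match to the κB consensus, the 10-base site that NF-kB dimers bind, on either strand. The letters are RefSeq's (GRCm38.p6), 5′ to 3′ on the strand of the gene, which is the minus strand for all 3. They are the exon-free part of the 250 bases before the RefSeq start. Tnfaip3 is shown from chr10:19015411-19015547, Rel from chr11:23770971-23771219 and Nfkbia from chr12:55492648-55492897.
Tnfaip3: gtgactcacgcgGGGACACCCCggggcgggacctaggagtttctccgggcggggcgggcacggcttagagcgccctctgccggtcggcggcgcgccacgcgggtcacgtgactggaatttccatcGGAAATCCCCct
Rel: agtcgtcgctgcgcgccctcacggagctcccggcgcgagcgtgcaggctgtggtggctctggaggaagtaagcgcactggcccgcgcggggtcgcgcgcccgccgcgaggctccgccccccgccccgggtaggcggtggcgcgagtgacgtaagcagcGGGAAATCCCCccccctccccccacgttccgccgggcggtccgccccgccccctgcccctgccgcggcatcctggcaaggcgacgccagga
Nfkbia: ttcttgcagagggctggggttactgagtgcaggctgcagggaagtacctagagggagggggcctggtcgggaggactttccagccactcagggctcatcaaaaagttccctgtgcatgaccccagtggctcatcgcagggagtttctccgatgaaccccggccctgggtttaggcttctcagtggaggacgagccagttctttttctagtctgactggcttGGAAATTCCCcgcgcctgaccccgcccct
In Tnfaip3 the matches begin 125 and 12 bases before the RefSeq start, which lies 247 bases downstream of the gene start of GENCODE. The stretch printed for Tnfaip3, with both matches, thus lies inside the gene as GENCODE annotates it, outside its exons. In Rel a pair of overlapping matches begins 92 and 91 bases before the start, and in Nfkbia a single match begins 29 bases before it. A window was available for 7 of the 10 genes, and Nfkb1, Relb and Nfkbiz had none. Where a gene had several windows, the one nearest to the GENCODE start was taken. The consensus was found in 5 of these 7 windows (Tnfaip3, Rel, Nfkbia, Nfkbie and Nfkb2), against 7.25% of 32851 windows of the same length, with every window of a gene counted. Nfkb2 had 3 matches, of which 2 overlap, and Nfkbie had 1, while the windows taken for Nfkbid and Bcl3 held none. The RefSeq start of Nfkb2 lies 417 bases from the GENCODE start, and its window lies inside the gene as GENCODE annotates it. Over all listed windows the consensus was in 1 of 2 for Tnfaip3, in 1 of 3 for Nfkbid and in 3 of 3 for Nfkb2. The consensus allows variable bases and was searched on both strands. These matches are descriptions of the letters and not evidence of binding.

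Library totals ran from 26829807 to 53846911 counts, and 16057 genes were tested. Susd2 (chromosome 10, 75636706 to 75644008, minus strand, GRCm38) was at 0.0316 and 0.103 CPM (counts relative to library size, with sizes adjusted by TMM) in Susd2-/- libraries, against 2.81 and 2.73 CPM in WT libraries at day 0. At day 3 it was at 0 and 0.0394 CPM in Susd2-/- libraries, against 0.517 and 0.354 CPM in WT libraries. The summed level of 7 T cell and CD8 markers was 2506 to 4674 CPM in the 8 libraries, and that of 8 B cell markers was 1.49 to 25.2 CPM. Libraries of a group scattered more at day 3, with a biological coefficient of variation of 10.1%, than at day 0, with 5.38%. Because the main fit pools the groups, the SE and p-values of either day draw on the scatter of both days. The WT libraries of day 0 differed little more than lanes of a single library did: chi-square per degree of freedom was 3.37 between those libraries and 3.01 to 3.17 between lanes. It was 6.3 between the Susd2-/- libraries of day 0. Day 0 counts are also given for a fit in which the day 0 libraries of a group were counted as 1.

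The first comparison asked how untreated Susd2-/- CD8+ T cells differed from untreated WT cells. Tnfaip3, the gene of A20, was 2.80-fold higher in Susd2-/- cells. The subunit genes Rel, Nfkb2 and Nfkb1 and the nuclear IkB gene Nfkbiz were 1.29 to 1.54-fold higher. In the main fit none of the 10 genes passed as lower, and the classical IkB genes Nfkbia and Nfkbie did not pass the test. In all, 5 of the 10 genes rose (adjusted p below 0.05 in edgeR's quasi-likelihood test), against 11.5% of all genes tested that rose and 12.1% that fell (23.6% in either direction). Their median log2 fold change was 0.32, against 0.0077 over all genes tested. With the day 0 libraries of a group counted as 1, 2 of the 10 genes passed (Tnfaip3 and Rel), as did 725 of all 16057 genes. In a fit of the day 0 libraries alone 8 passed, 7 higher and 1 lower, while 5627 of all genes passed, 2700 higher and 2927 lower. The genes gained in that fit were Relb and Nfkbia as higher (edgeR adjusted p = 0.00243 and 0.0426) and Bcl3 as lower (0.0388). In bulk RNA, fewer cells of a type that express a gene and less RNA of it per cell cannot be told apart.

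**Figure D1:**
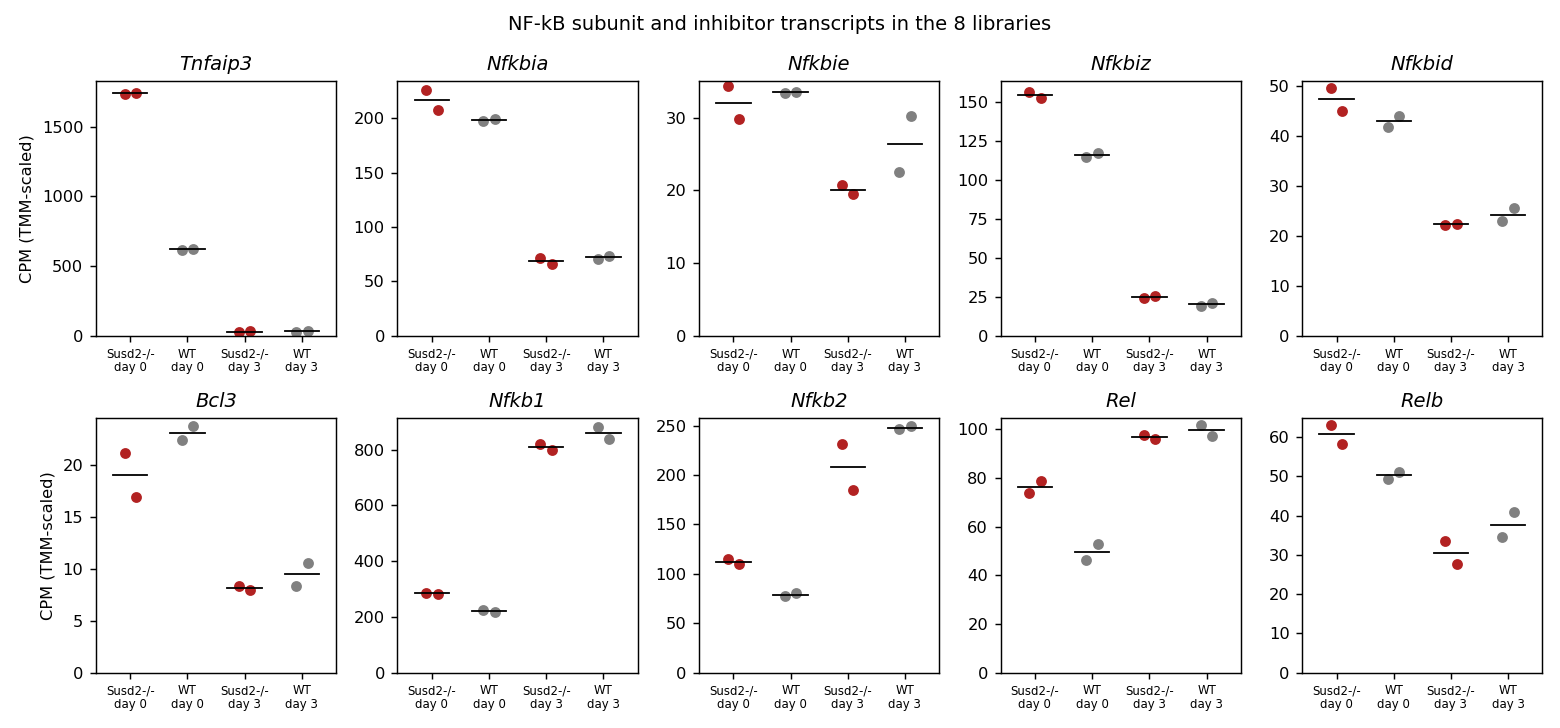
Transcript level of each of the 10 genes (y axis, TMM-scaled CPM) in the 4 groups, with a point per library (n = 2) and a bar at the mean; Susd2-/- groups are red and WT groups grey. Tnfaip3 stood at 1735 and 1741 CPM in Susd2-/- libraries of day 0, against 618 and 622 CPM in WT libraries of day 0, and under 36 CPM in every library of day 3.

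A20, the product of Tnfaip3, edits ubiquitin chains on signalling complexes upstream of IKK and so ends NF-kB signalling. Tnfaip3 (chromosome 10, 19000910 to 19015657, minus strand) was at 1735 and 1741 CPM in Susd2-/- libraries, against 618 and 622 CPM in WT libraries. The libraries of each genotype lay within 5 CPM of their mean, and the genotypes did not overlap. The log2 fold change was 1.49 ± 0.0686 (SE; edgeR adjusted p = 1.01e-10). By p-value it was rank 2 of the 16057 genes, and 536 genes had a higher fold change. It passed in all 17 alternative analyses, with log2 fold changes of 1.47 to 1.52, including the fit with day 0 libraries counted as 1 (adjusted p = 0.000214).

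The classical IkB proteins hold NF-kB dimers in the cytoplasm. Nfkbia (chromosome 12, 55489410 to 55492647, minus strand), the gene of IkBa, was at 226 and 208 CPM in Susd2-/- libraries, against 197 and 200 CPM in WT libraries. Nfkbie (chromosome 17, 45555703 to 45563169, plus strand), the gene of IkBe, was at 34.3 and 29.8 CPM in Susd2-/- libraries, against 33.4 and 33.6 CPM in WT libraries. Nfkbia was higher in both Susd2-/- libraries than in both WT libraries, but the log2 fold change of 0.13 ± 0.0662 did not pass (edgeR adjusted p = 0.176). Nfkbia passed as higher in 1 of 17 alternatives, the fit of the day 0 libraries alone. The genotypes overlapped for Nfkbie, at a log2 fold change of -0.06 (adjusted p = 0.777).

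The nuclear IkB proteins bind p50 or p52 on DNA and can raise or lower transcription. Nfkbiz (chromosome 16, 55811375 to 55838899, minus strand), the gene of IkBz, was at 156 and 152 CPM in Susd2-/- libraries, against 114 and 117 CPM in WT libraries. It rose by 0.42 ± 0.068 on the log2 scale (edgeR adjusted p = 2.11e-04), and the adjusted p was 0.0663 with the day 0 libraries counted as 1. Nfkbid (chromosome 7, 30421732 to 30428746, plus strand), the gene of IkBNS, was at 49.6 and 45.0 CPM in Susd2-/- libraries, against 41.8 and 44.0 CPM in WT libraries. Its log2 fold change of 0.14 did not pass (adjusted p = 0.315), although the genotypes did not overlap. Bcl3 (chromosome 7, 19808462 to 19822770, minus strand), the only one of the 10 that was lower in both Susd2-/- libraries, was at 21.2 and 17.0 CPM in Susd2-/- libraries, against 22.4 and 23.8 CPM in WT libraries. Its log2 fold change of -0.27 did not pass either (adjusted p = 0.192). Bcl3 passed as lower in 1 of 17 alternatives, the fit of the day 0 libraries alone.

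Of the 4 subunit genes 3 rose at day 0. Rel (chromosome 11, 23736847 to 23770970, minus strand) was at 73.9 and 78.7 CPM in Susd2-/- libraries, against 46.3 and 52.7 CPM in WT libraries, a log2 fold change of 0.62 ± 0.0765 (edgeR adjusted p = 1.04e-05). Rel passed in all 17 alternatives, with log2 fold changes of 0.52 to 0.71. Nfkb2 (chromosome 19, 46304320 to 46312385, plus strand) was at 115 and 110 CPM in Susd2-/- libraries, against 77.6 and 80.1 CPM in WT libraries. It rose by 0.51 ± 0.0849 (adjusted p = 3.86e-04). Nfkb1 (chromosome 3, 135584655 to 135691547, minus strand) was at 287 and 282 CPM in Susd2-/- libraries, against 224 and 217 CPM in WT libraries. It rose by 0.37 ± 0.0586 (adjusted p = 1.52e-04). Nfkb2 and Nfkb1 lost the call with the day 0 libraries counted as 1 (adjusted p = 0.0856 for Nfkb2 and 0.0649 for Nfkb1). Relb (chromosome 7, 19606217 to 19629438, minus strand) was at 63.2 and 58.2 CPM in Susd2-/- libraries, against 49.3 and 51.2 CPM in WT libraries. Its log2 fold change of 0.27 lay just outside the threshold (adjusted p = 0.0584) and passed in 9 of 17 alternatives, with adjusted p of 0.0391 in DESeq2 and 0.0326 in limma voom. Over the 10 genes, both Susd2-/- libraries were above both WT libraries for 8 and below for 1 (Bcl3), against 33.6% and 31.4% of all genes tested.

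**Figure D2:**
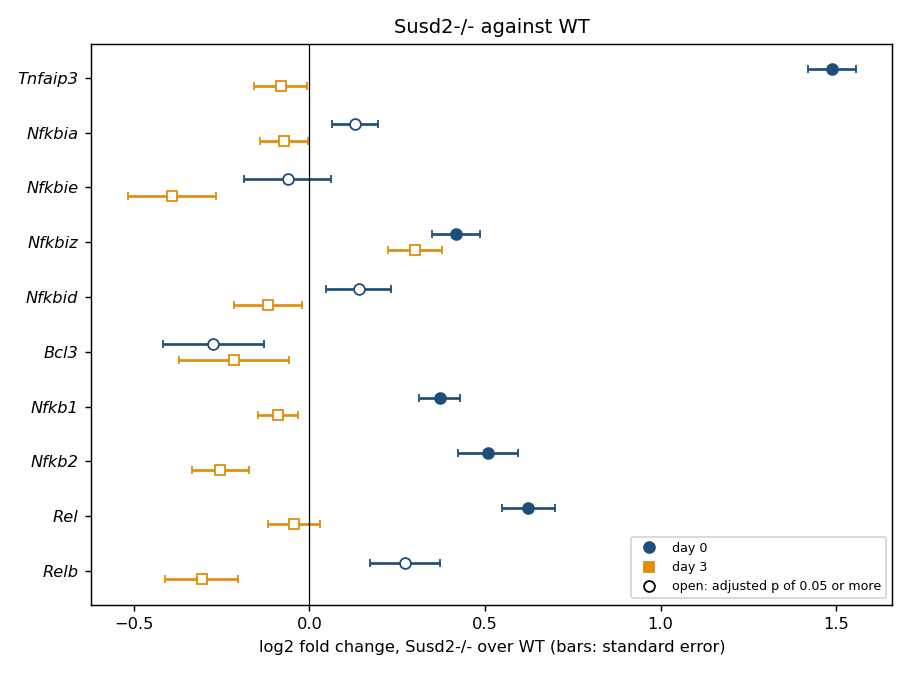
Log2 fold change of Susd2-/- over WT (x axis) for each of the 10 genes at day 0 (blue circles) and day 3 (orange squares), with the standard error from edgeR; filled symbols have an adjusted p below 0.05. At day 0 Tnfaip3 stood at 1.49 and 4 further genes between 0.37 and 0.62 passed, while no gene passed at day 3.

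Markers of other spleen cells differed in the same day 0 libraries. The summed level of 14 red pulp macrophage and monocyte markers was 208 and 195 CPM in Susd2-/- libraries, against 102 and 99.9 CPM in WT libraries, and 9 of the 14 rose. Lyz2 of the same list lay the other way without passing, at 8.10 and 7.04 CPM in Susd2-/- libraries against 9.91 and 11.2 CPM in WT libraries. The summed level of 5 NK cell markers was 13.4 and 13.6 CPM in Susd2-/- libraries, against 26.2 and 23.9 CPM in WT libraries. Of these 5 markers 2 fell and 3 did not pass. That of 4 plasma cell markers was 8.58 and 7.21 CPM in Susd2-/- libraries, against 35.8 and 33.9 CPM in WT libraries. The plasma cell sum was mostly Igha and Jchain, which fell, while Sdc1 of the same list rose, at 1.42 and 1.20 CPM in Susd2-/- libraries against 0.437 and 0.205 CPM in WT libraries. The 7 T cell and CD8 markers summed to 4367 and 4145 CPM in Susd2-/- libraries, against 4674 and 4667 CPM in WT libraries, and 4 of the 7 fell. Macrophages also use NF-kB and its inhibitors, and the part of these cells in the differences above was not tested. None of the markers of these 4 lists was at 0 throughout a group at day 0.

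Other genes of the pathway were taken from 7 lists of textbook members. Of 70 such genes tested, 21 passed at day 0, beside 23.6% of all genes tested, and 5 passed with the day 0 libraries counted as 1, beside 725 of all 16057 genes. Rela, the gene of the p65 subunit, was at 117 and 108 CPM in Susd2-/- libraries, against 95.6 and 95.5 CPM in WT libraries, and rose by 0.23 ± 0.0675 (edgeR adjusted p = 0.0170). Without Susd2-/- library 3 of day 0, or without either WT library of day 0, Rela did not pass (adjusted p = 0.322, 0.211 and 0.138). The signalling genes Malt1 and Bcl10 rose by 0.31 ± 0.0668 and by 0.28 ± 0.0752. Of 18 genes of IKK kinases, the kinases above them and adaptors, 3 rose and 2 fell. The adaptor gene Traf6 was at 93.3 and 98.0 CPM in Susd2-/- libraries, against 69.7 and 71.0 CPM in WT libraries, and rose by 0.44 ± 0.0674 (adjusted p = 1.03e-04). The IKK kinase genes Ikbkb and Ikbke rose by 0.32 ± 0.0605 and 0.31 ± 0.0763, while Ikbkg, the gene of the regulatory subunit NEMO, and Birc3, a ubiquitin ligase gene, had log2 fold changes of -0.24 and -0.29 (these 2 were named after their values were seen). Of 3 genes of the linear ubiquitin ligase only Sharpin rose, by 0.24 ± 0.0797, and of 10 other negative regulators only Otulin, a deubiquitinase gene, fell, by 0.22. Of 9 TNF-family receptor genes tested, Tnfrsf14 fell by 0.40 and the other 8 did not pass in edgeR; DESeq2 called 3 of the 9 and limma voom 2. Bcl10, Ikbke, Sharpin, Otulin and Tnfrsf14 each lost the call without at least 1 of the day 0 libraries.

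Of 27 tested genes known to be induced through NF-kB in lymphocytes, 8 rose and 2 fell at day 0, beside 11.5% and 12.1% of all genes tested, with a median log2 fold change of 0.05. Irf4, a transcription factor gene that is switched on with the strength of receptor signalling, was at 39.3 and 34.1 CPM in Susd2-/- libraries, against 13.6 and 12.5 CPM in WT libraries. Its log2 fold change of 1.49 ± 0.0821 (edgeR adjusted p = 3.90e-10) was as large as that of Tnfaip3. Ccr7, the gene of the receptor that guides T cells to lymph nodes, was at 702 and 684 CPM in Susd2-/- libraries, against 471 and 468 CPM in WT libraries (0.56 ± 0.0716, adjusted p = 1.92e-05). Irf1, an interferon response factor gene, went the other way and was at 213 and 199 CPM in Susd2-/- libraries, against 314 and 304 CPM in WT libraries (-0.59 ± 0.0635, adjusted p = 2.79e-06). The other genes that rose were Tnf, Gadd45b, Cflar, Bcl2l1, Myc and Il2ra, and the other that fell was Irf8, all named after their values were seen. Of these 27 genes 4 passed with the day 0 libraries counted as 1.

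The second comparison asked how the cells differed after 3 days with the peptide. None of the 10 genes passed in edgeR, DESeq2 or limma voom, and 4 had an unadjusted edgeR p below 0.05: Nfkbiz, which was higher in Susd2-/- cells, and Nfkbie, Nfkb2 and Relb, which were lower. Of all genes tested, 0.137% passed, 0.0498% as higher and 0.0872% as lower. The median log2 fold change of the 10 genes was -0.10, against 0 over all genes. Both Susd2-/- libraries were above both WT libraries for 1 gene and below for 5, against 17.4% and 16.3% of all genes.

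Nfkbiz was at 24.5 and 25.3 CPM in Susd2-/- libraries, against 19.4 and 21.1 CPM in WT libraries, a log2 fold change of 0.30 ± 0.0774 (edgeR adjusted p = 0.191). It was the gene whose genotype difference pointed the same way at both days with no overlap of the libraries. Nfkbie was at 20.7 and 19.5 CPM in Susd2-/- libraries, against 22.5 and 30.2 CPM in WT libraries (-0.39 ± 0.126, adjusted p = 0.378). Nfkb2 was at 231 and 185 CPM in Susd2-/- libraries, against 246 and 249 CPM in WT libraries (-0.25 ± 0.0822, adjusted p = 0.389). The spread of Nfkb2 lay in the Susd2-/- libraries and that of Nfkbie in the WT libraries. Relb was at 33.4 and 27.8 CPM in Susd2-/- libraries, against 34.4 and 41.0 CPM in WT libraries (-0.31 ± 0.103, adjusted p = 0.406). Without Susd2-/- library 1 of day 3, the log2 fold change was -0.42 for Nfkb2 and -0.44 for Relb. Without WT library 1 of day 3, it was -0.54 for Nfkbie. Each of these fits leaves 1 library in a group.

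The other 6 genes had an unadjusted edgeR p of 0.05 or more at day 3. Tnfaip3 was at 30.0 and 31.6 CPM in Susd2-/- libraries, against 29.8 and 35.5 CPM in WT libraries, and the genotypes overlapped. Nfkbia was at 71.5 and 66.0 CPM in Susd2-/- libraries, against 71.0 and 73.3 CPM in WT libraries. Rel was at 97.6 and 95.9 CPM in Susd2-/- libraries, against 102 and 97.3 CPM in WT libraries. These 3 had log2 fold changes of -0.08, -0.07 and -0.04. Nfkb1 was at 820 and 798 CPM in Susd2-/- libraries, against 882 and 840 CPM in WT libraries. Nfkbid was at 22.2 and 22.5 CPM in Susd2-/- libraries, against 23.0 and 25.5 CPM in WT libraries. Bcl3 was at 8.39 and 7.96 CPM in Susd2-/- libraries, against 8.33 and 10.6 CPM in WT libraries. Nfkb1 and Nfkbid were lower in both Susd2-/- libraries than in both WT libraries, and Bcl3 overlapped at a log2 fold change of -0.21. In the pathway lists 0 of 70 genes passed in edgeR, DESeq2 or limma voom, and 7 had an unadjusted p below 0.05, all lower in Susd2-/- cells. Those of smallest p were Tnip1, whose product binds A20, at 68.9 and 62.1 CPM in Susd2-/- libraries against 78.0 and 78.5 CPM in WT libraries, and Otulin, at 187 and 170 CPM against 209 and 207 CPM. Tnip1 passed as lower in 1 of 17 alternatives, with log2 fold changes of -0.33 to -0.18 over them. That fit left out Susd2-/- library 1 of day 3 and so kept 1 library in the group. The macrophage markers summed to 13.0 and 11.1 CPM in Susd2-/- libraries, against 11.7 and 15.4 CPM in WT libraries at day 3, with Adgre1, C1qa, C1qc, Vcam1, Spic and Marco at 0 in all 4.

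The third comparison asked what 3 days with the peptide did within each genotype. In both genotypes all 10 genes changed, 3 higher and 7 lower. The subunit genes Nfkb1, Nfkb2 and Rel rose. Relb and all 6 genes grouped here as inhibitors fell, Tnfaip3 by far the most. These 6 include the nuclear IkB genes, whose products can raise or lower transcription. Of all genes tested 76.4% changed in Susd2-/- cells (36.7% rose and 39.7% fell) and 75.2% in WT cells (36.2% rose and 39% fell), so a change by itself was common. The libraries of the days did not overlap for any of the 10 genes. Of all genes, 41.8% lay apart as higher and 46.8% as lower in Susd2-/- cells, and 41.4% and 46.9% in WT cells. The median log2 fold change of the 10 genes was -1.04 in Susd2-/- cells and -0.62 in WT cells, against -0.12 and -0.14 over all genes.

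Tnfaip3 averaged 30.8 ± 1.18 CPM at day 3, against 1738 ± 4.55 CPM at day 0 in Susd2-/- cells (SD, n = 2), so that day 3 held 1.77% of the day 0 level. In WT cells it averaged 32.7 ± 4.02 CPM at day 3, against 620 ± 2.77 CPM at day 0, or 5.27%. The log2 fold changes were -5.82 ± 0.0842 in Susd2-/- cells and -4.25 ± 0.0794 in WT cells (edgeR adjusted p = 3.77e-20 and 5.09e-19). In Susd2-/- cells 516 of the 16057 genes had a lower fold change. Nfkbiz followed, at 24.9 ± 0.571 CPM at day 3 against 154 ± 2.76 CPM at day 0 in Susd2-/- cells, and at 20.3 ± 1.21 CPM at day 3 against 116 ± 1.97 CPM at day 0 in WT cells. Its log2 fold changes were -2.63 ± 0.074 and -2.51 ± 0.076. Nfkbia had log2 fold changes of -1.66 ± 0.0687 in Susd2-/- cells and -1.46 ± 0.0688 in WT cells. Bcl3 had log2 fold changes of -1.23 in Susd2-/- cells and -1.29 in WT cells, and Nfkbid of -1.08 and -0.82. Nfkbie fell least among the genes grouped as inhibitors, by 0.68 ± 0.125 in Susd2-/- cells (adjusted p = 8.85e-05) and by 0.35 ± 0.125 in WT cells (adjusted p = 0.0183). The WT call for Nfkbie was lost without either WT library of day 0 (adjusted p = 0.0583 without library 3 and 0.0721 without library 4), without WT library 1 of day 3 (0.342), and with the day 0 libraries counted as 1 (0.0697).

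**Figure D3:**
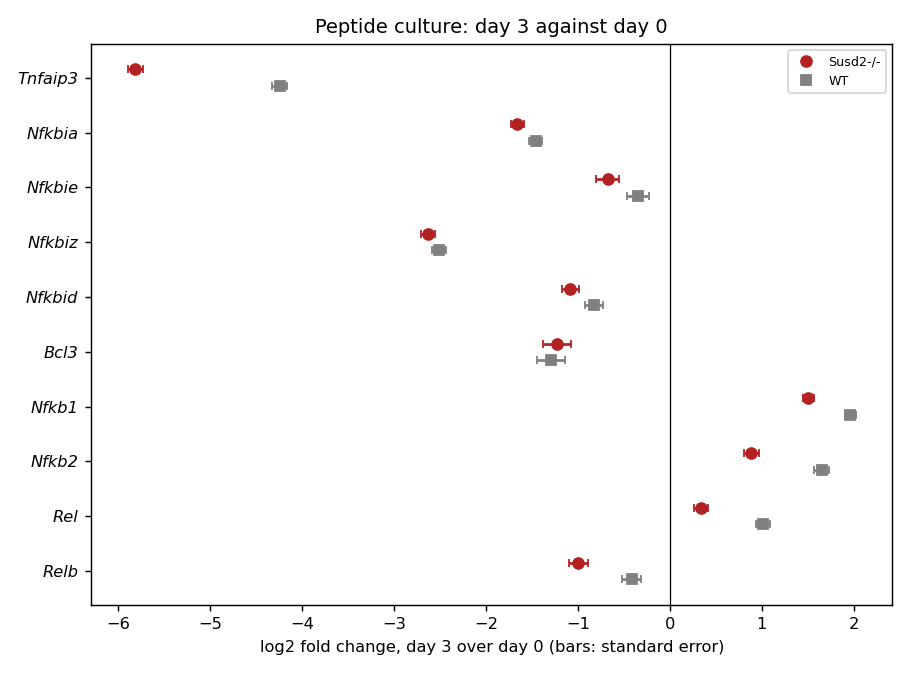
Log2 fold change of day 3 over day 0 (x axis) for each of the 10 genes in Susd2-/- cells (red circles) and WT cells (grey squares), with the standard error from edgeR; all values have an adjusted p below 0.05. Tnfaip3 stood at -5.82 in Susd2-/- cells and -4.25 in WT cells, and Nfkb1, Nfkb2 and Rel lay above 0 in both.

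Nfkb1 averaged 809 ± 16.0 CPM at day 3, against 285 ± 3.43 CPM at day 0 in Susd2-/- cells, and 861 ± 29.8 CPM at day 3, against 220 ± 4.94 CPM at day 0 in WT cells. Its log2 fold changes were 1.51 ± 0.0592 and 1.97 ± 0.0602. Nfkb2 rose by 0.89 ± 0.0836 in Susd2-/- cells and by 1.65 ± 0.0855 in WT cells. Rel rose by 0.34 ± 0.0745 in Susd2-/- cells (edgeR adjusted p = 3.97e-04) and by 1.01 ± 0.0764 in WT cells (adjusted p = 4.27e-10). The rise of Rel in Susd2-/- cells depends on the scaling: with total counts only it was 0.14 (adjusted p = 0.0946), a scaling that moved the median of all genes to -0.32 in both genotypes. Relb was the one of the 4 subunit genes described here that fell, by 0.99 ± 0.102 in Susd2-/- cells and by 0.42 ± 0.102 in WT cells (adjusted p = 5.40e-08 and 0.00132).

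Among the other pathway genes, Rela, also a subunit gene, fell by 0.47 in Susd2-/- cells and had a log2 fold change of -0.14 in WT cells that did not pass (edgeR adjusted p = 0.0624), while Nfkbib, the gene of IkBb, rose by 1.20 ± 0.0817 in Susd2-/- cells and by 1.41 ± 0.0821 in WT cells. Of all genes tested, 36.7% rose and 39.7% fell in Susd2-/- cells, and 36.2% rose and 39% fell in WT cells. Beside these shares, 3 of the 18 genes of IKK kinases and adaptors rose and 11 fell in each genotype. Ikbke fell most, to 16.6 and 17.7 CPM at day 3 against 406 and 417 CPM at day 0 in Susd2-/- cells, and to 15.9 and 20.2 CPM at day 3 against 325 and 337 CPM at day 0 in WT cells. Of the 10 other negative regulators 5 rose and 5 fell in each genotype. Tnip3, whose product also binds A20, was at 39.3 and 35.9 CPM at day 3 against 0.127 and 0.137 CPM at day 0 in Susd2-/- cells, and at 45.0 and 43.0 CPM at day 3 against 0.188 and 0.0683 CPM at day 0 in WT cells. Of the 27 genes known to be induced through NF-kB, 19 rose and 6 fell in Susd2-/- cells and 20 rose and 6 fell in WT cells. Il2ra, the gene of the high-affinity IL-2 receptor chain, averaged 961 CPM at day 3 in Susd2-/- cells and 982 CPM at day 3 in WT cells, with log2 fold changes of 8.05 ± 0.106 and 8.59 ± 0.11. At day 3, then, Nfkb1, Nfkb2, Rel and most of these induced genes were higher than at day 0, in libraries in which Tnfaip3, Nfkbia and Nfkbiz were lower. The subunit gene Relb was lower as well, as was Rela in Susd2-/- cells. The IkB gene Nfkbib was higher, as were 5 of the 10 other negative regulators, while the other 5 were lower. The macrophage markers were also lower at day 3 than at day 0, from 11.1 to 15.4 CPM in sum at day 3 against 99.9 to 208 CPM at day 0 over both genotypes, and their part in the differences was not tested.

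The last comparison asked whether the genotype difference changed between the days, as the difference at day 3 minus that at day 0. It uses all 8 libraries and so shares them with the comparisons above. Of the 10 genes 5 passed, all lower, against 6.88% of all genes tested that passed as lower and 6.6% as higher (13.5% in all). Tnfaip3 had the largest difference of the 10, -1.57 ± 0.102 (edgeR adjusted p = 1.31e-08). The 4 subunit genes followed: Nfkb2 at -0.76 ± 0.118 (adjusted p = 4.77e-04), Rel at -0.67 ± 0.106 (4.03e-04), Relb at -0.58 ± 0.144 (0.0122) and Nfkb1 at -0.46 ± 0.0822 (0.00105). Nfkbiz, whose Susd2-/- libraries lay above the WT libraries at both days without passing at day 3, differed by -0.12 ± 0.103 (0.519). Nfkbia, Nfkbid and Nfkbie lay at -0.20, -0.26 and -0.33 and Bcl3 at 0.06, and did not pass. With the day 0 libraries counted as 1, Tnfaip3 and Rel passed, and Nfkb1, Nfkb2 and Relb did not (adjusted p = 0.0822, 0.0607 and 0.203). Relb also lost the call without Susd2-/- library 3 of day 0, WT library 3 of day 0, Susd2-/- library 2 of day 3 or WT library 2 of day 3, with adjusted p of 0.0510 to 0.0699.

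Of the 70 pathway genes 14 passed in this comparison, beside 13.5% of all genes tested. Fewer of the 70 passed with the day 0 libraries counted as 1. Irf4 differed by -1.58 ± 0.106 (edgeR adjusted p = 1.85e-08), about as much as Tnfaip3, Ccr7 by -0.70 ± 0.102 and Irf1 by 0.65 ± 0.0906. Traf6 differed by -0.53 ± 0.0946 and Tnip1 by -0.43 ± 0.102. Irf4 and Tnfaip3 thus had like genotype differences at day 0, while their levels moved in opposite directions by day 3, with Irf4 at 519 and 529 CPM in Susd2-/- libraries against 540 and 573 CPM in WT libraries.

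To compare levels between genes, CPM were divided by exon length, the bases covered by any annotated exon of the gene. This length was 12061 bases for Nfkb1, 7226 for Tnfaip3 and 1610 for Nfkbia. Where the transcripts present are shorter than that, the level of a gene is understated. The order of the genes and their shares of the sum therefore depend on this choice of length. At day 0 the order began with Tnfaip3 at 240.5 CPM per kb, Nfkbia at 134.7 and Nfkbiz at 30.8 in Susd2-/- cells. In WT cells it began with Nfkbia at 123 CPM per kb, Tnfaip3 at 85.8 and Nfkbiz at 23.1. Tnfaip3 and Nfkbia thus stood in opposite order in the genotypes, with libraries that did not overlap in either. Further down, the neighbours whose libraries overlapped were Nfkbie and Rel in Susd2-/- cells and Nfkbid and Nfkb1 in WT cells. At day 3 Nfkb1 led in both genotypes, at 67.1 CPM per kb in Susd2-/- cells and 71.4 CPM per kb in WT cells, followed by Nfkb2 at 45.4 in Susd2-/- cells and 54.0 in WT cells, and by Nfkbia at 42.7 in Susd2-/- cells and 44.8 in WT cells. Nfkb2 and Nfkbia overlapped in Susd2-/- libraries and not in WT libraries. Tnfaip3 was near the end of the order at day 3, at 4.26 CPM per kb in Susd2-/- cells and 4.52 in WT cells.

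As a share of the summed CPM per kb of the 10 genes, Tnfaip3 made up 45.5% and 47.3% in Susd2-/- libraries, against 26.5% and 26.2% in WT libraries at day 0. At day 3 it made up 1.95% and 2.23% in Susd2-/- libraries, against 1.86% and 2.16% in WT libraries. The 4 subunit genes made up 14.2% and 14.3% in Susd2-/- libraries, against 16.8% and 17.0% in WT libraries at day 0, and 65.7% and 64.5% against 67.3% and 64.9% at day 3. The share of the subunits was lower in Susd2-/- libraries at day 0 although 3 of the 4 had risen, since the sum includes Tnfaip3.

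**Figure D4:**
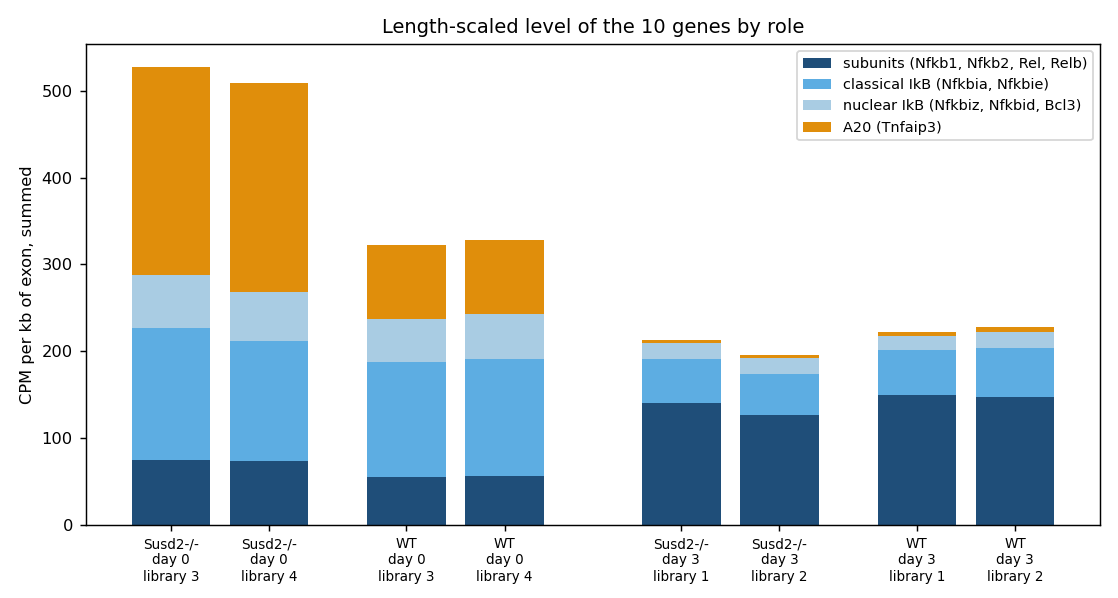
Summed length-scaled level (y axis, CPM per kb of exon) of the 10 genes in each library, stacked by role. The Tnfaip3 segment measured 240.1 and 241.0 CPM per kb in Susd2-/- libraries, against 85.5 and 86.0 CPM per kb in WT libraries at day 0, and under 5 CPM per kb at day 3, where the subunits made up 64.5% to 67.3% of the sum.

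Counts of 2 of the genes could include reads of an overlapping gene on the opposite strand, since the strand setting of the counting is not given in the sources used here. Psd overlaps 6.52% of the exon bases of Nfkb2, and Gm16175 overlaps 6.51% of those of Bcl3. AC114539.1, also on the opposite strand, overlaps 11.58% of those of Nfkb2. It is not among the gene symbols counted, so the number of its reads is not known. Over the 8 libraries Psd had 4555 counts and Nfkb2 42574, and Gm16175 had 5 counts and Bcl3 3794.

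The genes whose log2 CPM, centred over the 8 libraries, lay nearest to each of the 10 genes were found among 11149 genes, by the root mean square difference. This describes likeness of pattern only. The gene nearest to Tnfaip3 was Dusp1, a phosphatase gene, at 0.114 log2 units, and the next was Ttc28, at 0.204. Dusp1 averaged 386 CPM in Susd2-/- cells against 151 CPM in WT cells at day 0, and 7.51 CPM against 8.70 CPM at day 3. Rel was nearest to Ppp1r16b, at 0.0307 log2 units, which averaged 130 CPM in Susd2-/- cells against 85.7 CPM in WT cells at day 0, and 170.0 CPM against 168 CPM at day 3. Nfkb1 was nearest to Hdlbp (0.0407) and Atad3a (0.0471), and Nfkb2 to Slc3a2 (0.0799) and Rnf126 (0.0855). Nfkbia was nearest to Lsp1 (0.0311) and Stk10 (0.0467), Nfkbid to Rgs3 (0.0436) and Brd1 (0.0464), and Relb to Zswim8 (0.0642) and Mark4 (0.0732). Nfkbiz was nearest to the receptor segment Trbj1-3 (0.0926) and to Pag1 (0.0977), Bcl3 to Slc50a1 (0.0825) and Evi2a (0.0836), and Nfkbie to Pstpip1 (0.101) and Ndst2 (0.101). None of the 10 genes was among the listed neighbours of another, since only other genes were considered.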

How the data were processed

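Whole-number raw gene counts, not normalized, were deposited by the authors for 15 sequencing lanes of 8 libraries, per the file headers; WT library 2 of day 3 had 1 lane. Tools listed in the submitters' processing notes are Subread 2.0.1, SAMtools 1.10, HISAT2 2.1.0 and fastp 0.23.2, with build GRCm38. The strand setting, annotation release and handling of multimapped reads are not given in the sources. Lanes were summed per library. One edgeR 4.0.16 model (R 4.3.3) covered the 4 groups, after filterByExpr (16057 genes kept) and TMM, with robust quasi-likelihood tests. Benjamini-Hochberg adjustment ran over all 16057 genes in each of 5 comparisons, and an adjusted p below 0.05 is called a change. SE is the log2 fold change divided by the root of F. Alternatives included DESeq2 1.42.0 and limma 3.58.1 voom. Exon lengths came from GENCODE's annotation of GRCm38, as the union of all annotated exons of a gene. The 10 genes and all lists were chosen with earlier results of these data known. Pathway genes were named by a rule: up to 3 past the test per list and comparison, and otherwise up to 2 of smallest p. The text names part of those, and 1 list is not reported here by name. On simulated data, directions and sizes were recovered at measurable levels, but part of the changed genes, mostly of low level, were missed. Where spread differed from gene to gene, the share of false calls was above the nominal rate. The pass marks of this check were changed after a first run had failed them. The simulated counts held no difference between the days, unlike the data. Calls near the threshold (Nfkbie in WT, Relb between the days) therefore carry less weight.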

Additional observations from a re-analysis of the deposited data

Results flagged for a closer look

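The genotype difference, Susd2-/- over WT, differed between the days by the interaction test in edgeR for 5 of the 10 genes. Of all genes tested, 13.5% passed the same test. The difference at day 3 minus that at day 0 was -1.57 for Tnfaip3, -0.76 for Nfkb2, -0.67 for Rel, -0.58 for Relb and -0.46 for Nfkb1 (log2). For Tnfaip3, Rel and Nfkb1 the day 3 difference lay between -0.09 and -0.04, so the value is close to the day 0 difference with the sign turned. For Nfkb2 and Relb the day 3 difference was itself below 0, at -0.25 and -0.31, without passing the test. Among pathway genes the same test passed for Irf4 at -1.58, Ccr7 at -0.70, Traf6 at -0.53, Tnip1 at -0.43, Malt1 at -0.40, Ikbke at -0.38, Ikbkb at -0.36, Bcl10 at -0.34 and Rela at -0.32, and for Irf1 at 0.65. Irf4, Ccr7 and Irf1 passed in all 16 alternatives, Traf6 in 15, Tnip1 in 13, Malt1 in 12, Ikbkb in 10, Bcl10 and Rela in 6 and Ikbke in 5. With the day 0 libraries of a group counted as 1, Traf6 (adjusted p = 0.0607) as well as Tnip1, Malt1, Ikbke, Ikbkb, Bcl10 and Rela did not pass (0.139 to 0.350), and with a replicate block Bcl10 (0.0749) and Rela (0.0606) did not.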

How the results depend on the processing

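Tnfaip3 and Rel at day 0 passed in each of 17 alternative analyses, and both in each of 16 for the difference between the days. With the day 0 libraries of a group counted as 1, a fit that takes its spread from day 3, 725 genes and 2 of the 10 passed at day 0 (main analysis 3792 and 5), 1 gene at day 3 (main 22), and 364 genes and 2 of the 10 between the days (main 2164 and 5). With only the groups compared in the fit, 5627 genes and 8 of the 10 passed at day 0 and 3 genes passed at day 3. Counts at day 3 were 66 genes in DESeq2 and 138 without a filter. Leaving out a library gave 2044 to 4410 genes and 5 to 6 of the 10 at day 0, 6 to 392 genes and 0 to 2 of the 10 at day 3, 11229 to 12757 genes and 10 of the 10 for the days in Susd2-/- cells, 11137 to 12355 genes and 9 to 10 of the 10 for the days in WT cells, and 1176 to 2498 genes and 4 to 5 of the 10 between the days. Directions turned for values that had not passed: Nfkbie at day 0 (-0.178 to 0.0384 over the libraries left out, above 0 without Susd2-/- library 4), Rel at day 3 (0.00206 with no filter, -0.0566 to 0.0373 over the libraries left out, highest without WT library 1), Tnfaip3 at day 3 (-0.155 to 0.076, above 0 without WT library 2) and Bcl3 between the days (-0.0355 with the first lane only, -0.0958 to 0.286 over the libraries left out, below 0 without Susd2-/- library 4 of day 0 or WT library 1 of day 3). The cause was not tested.

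Deviations of same-numbered libraries correlated at 0.00859 at day 0 and -0.0104 at day 3. Differences that are mostly counting noise would also give values near 0. These correlations therefore cannot tell whether same-numbered libraries were prepared as pairs. With a replicate block, 3406 genes and 5 of the 10 passed at day 0, 17 genes and 0 of the 10 at day 3, 11312 genes and 10 of the 10 for the days in Susd2-/- cells, 10928 genes and 9 of the 10 in WT cells, and 1796 genes and 5 of the 10 between the days. Nfkbie in WT was the call lost (-0.22, adjusted p = 0.212). Lanes of a library differed by a median ratio of 1.07 over the 10 genes. At day 3 Nfkbie (-0.39 ± 0.126) and Relb (-0.31 ± 0.103) lay about 3 SE from 0 and did not pass after adjustment over 16057 genes.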
